A study of Mus musculus with 4 samples.

Results

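Tetraspanins are small proteins that cross the membrane repeatedly, gather integrins, proteases and receptors into membrane domains, and mark extracellular vesicles. Messenger RNA of 9 tetraspanin genes of microglia (the immune cells that reside in the brain) was measured by bulk RNA-seq: Cd9, Cd63, Cd81, Cd82, Cd37, Cd53, Cd151, Tspan3 and Tspan4. They were taken by gene symbol from the 49993 genes of the count tables, and all 9 were found. Cd9 and Cd63 are among the genes known to be raised in disease-associated microglia, the state found around amyloid plaques, while Cd37 and Cd53 are largely restricted to leukocytes.

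The cells were CD11b+ microglia, taken by magnetic sorting from brain tissue of mice aged 10 months. Every animal carried the APP/PS1 transgenes, which cause amyloid to build up, and there were no mice without them. The AD group (2 libraries) was APP/PS1+ asrij+/+, and the AD/KO group (2 libraries) was APP/PS1+ asrij-/-, a constitutive deletion, which is therefore not limited to microglia. The study asked what asrij, the gene Ociad1, does in microglial activation, and the comparison here asks whether tetraspanin levels differ with it. The labels do not say whether a library came from 1 animal or several, so that p-values measure only the spread between these libraries. In AD/KO that spread may be technical, while the 2 AD libraries differed in Xist reads (given below).

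The libraries held 13102622 to 19810076 counts. Levels are counts scaled to library size (CPM) after adjustment of the libraries by the trimmed mean of M values. The 9 genes had 345 to 11378 reads each in a library, a counting error of 5.38% to 0.937%, which is small beside the spread between libraries for most of them. Ociad1 itself was at 50.2 and 63.4 CPM in the libraries labelled AD and at 38.9 and 32.1 CPM in those labelled AD/KO, lower in each AD/KO library but still present (log2 fold change −0.68, SE 0.29; adjusted p = 0.680, edgeR quasi-likelihood with Benjamini-Hochberg). Which exons the deletion removes is not given in the sources used here, and AD and AD/KO stand for labels throughout. AD/KO replicate 2 stood apart. The mean log2 CPM of 12 homeostatic microglia genes was 10.3 and 9.78 in AD replicates 1 and 2, and 10.2 and 8.40 in AD/KO replicates 1 and 2, while 10 astrocyte genes were at 6.06, 7.35, 7.41 and 8.70 and 12 neuron genes at 4.36, 6.02, 5.79 and 7.36 in the same order. AD replicate 2 also differed, with a sum of 4731 CPM over 10 neutrophil genes against 379 to 574 CPM in the other libraries, and with 1391 Xist reads against 3 to 15. Xist is a transcript of female cells, and AD replicate 1 had 6 of these reads, so that the AD libraries were not repeats of 1 sample. Sex thus differed within AD and was not balanced between the groups. Of the marker lists checked, T and NK cell genes were near 0, with 3 of 6 at 3 reads or fewer in every library.

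Promoter windows from RefSeq (GRCm38.p6; 250 bases before to 50 bases after a start site) were found for all 9 genes, 14 windows in all. The windows of Cd37 and Cd53 are shown because these leukocyte genes hold a motif of PU.1, the ETS-family factor of the myeloid lineage, close to the start. Cd9 and Tspan3 are shown as the members with the largest difference in each direction. Capitals mark the letters GAGGAAGT (PU.1 box) and GGAAGT (ETS core, which the PU.1 box contains), searched on both strands; the windows read 5′ to 3′ along the gene.
Cd37, chr7:45238790-45239089, minus strand: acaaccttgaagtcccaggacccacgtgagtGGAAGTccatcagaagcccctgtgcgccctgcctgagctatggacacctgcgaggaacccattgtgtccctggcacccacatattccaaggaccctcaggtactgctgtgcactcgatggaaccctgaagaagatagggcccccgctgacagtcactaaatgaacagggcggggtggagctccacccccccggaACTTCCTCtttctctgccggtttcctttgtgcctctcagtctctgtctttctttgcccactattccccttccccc
Cd53, chr3:106790100-106790399, minus strand: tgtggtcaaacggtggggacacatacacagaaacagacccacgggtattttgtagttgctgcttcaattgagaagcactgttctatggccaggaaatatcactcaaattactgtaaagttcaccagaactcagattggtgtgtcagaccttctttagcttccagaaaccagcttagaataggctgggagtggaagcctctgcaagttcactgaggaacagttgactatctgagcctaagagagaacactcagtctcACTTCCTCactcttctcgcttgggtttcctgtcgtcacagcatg
Cd9, chr6:125494711-125495010, minus strand: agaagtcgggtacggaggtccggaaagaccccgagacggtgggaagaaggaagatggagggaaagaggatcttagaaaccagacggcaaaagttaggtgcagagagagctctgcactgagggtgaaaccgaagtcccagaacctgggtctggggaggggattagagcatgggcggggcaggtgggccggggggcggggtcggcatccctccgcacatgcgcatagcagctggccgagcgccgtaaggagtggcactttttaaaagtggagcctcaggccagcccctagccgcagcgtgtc
Tspan3, chr9:56161021-56161320, minus strand: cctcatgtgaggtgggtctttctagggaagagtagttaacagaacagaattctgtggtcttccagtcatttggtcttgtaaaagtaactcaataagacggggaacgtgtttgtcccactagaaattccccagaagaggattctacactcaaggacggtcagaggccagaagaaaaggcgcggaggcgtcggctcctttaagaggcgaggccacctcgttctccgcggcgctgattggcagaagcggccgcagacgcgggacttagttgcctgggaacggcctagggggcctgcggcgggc
The PU.1 box lies on the opposite strand at −25 to −18 from the start of Cd37 and at 7 to 14 past the start of Cd53. It was found in 3 of the 14 windows (Cd37, Cd53 and the third window of Cd82), against 3.20% of 32851 windows of all genes. The ETS core was in 5 of the 14 windows, against 23.77% of all windows. The Cd9 and Tspan3 windows hold neither letter string. A match is a description of these letters and not a measured binding site. The windows also differed in CpG content, with 18 CpG in Cd9, 19 in Tspan3, 8 in Cd37 and 4 in Cd53, where the median of all windows is 7. By position, 4 of the 9 genes are on chromosome 7, and Cd151 ends 3754 bases before Tspan4 begins on the same strand.

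Levels between genes are compared per kilobase of the principal GENCODE M21 transcript (CPM per kb). In AD, Cd81 stood highest at 318 ± 15.1 CPM per kb (SD, n = 2), followed by Cd9 at 205 ± 7.19, Cd37 at 182 ± 46.2, Cd53 at 135 ± 8.67, Cd63 at 100.3 ± 12.9, Cd82 at 53.6 ± 6.72, Tspan4 at 29.8 ± 3.72, Tspan3 at 28.4 ± 6.57 and Cd151 at 13.5 ± 1.01 (SD, n = 2 each). In this order the AD libraries of Cd9 and Cd37 overlapped, as did those of Tspan4 and Tspan3. Cd81 also led in AD/KO, at 297 ± 128 CPM per kb (SD, n = 2), and Cd151 was again lowest, at 15.3 ± 7.47 (SD, n = 2). Tspan3 stood at 52.9 ± 17.5 CPM per kb in AD/KO (SD, n = 2) and ranked 6 of 9 there, against 8 of 9 in AD. Ranks in the middle depend on the length used. With all annotated exons as the length, Cd53 ranked 2 in AD in place of Cd9, and Cd63 ranked 6.

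**Figure D1:**
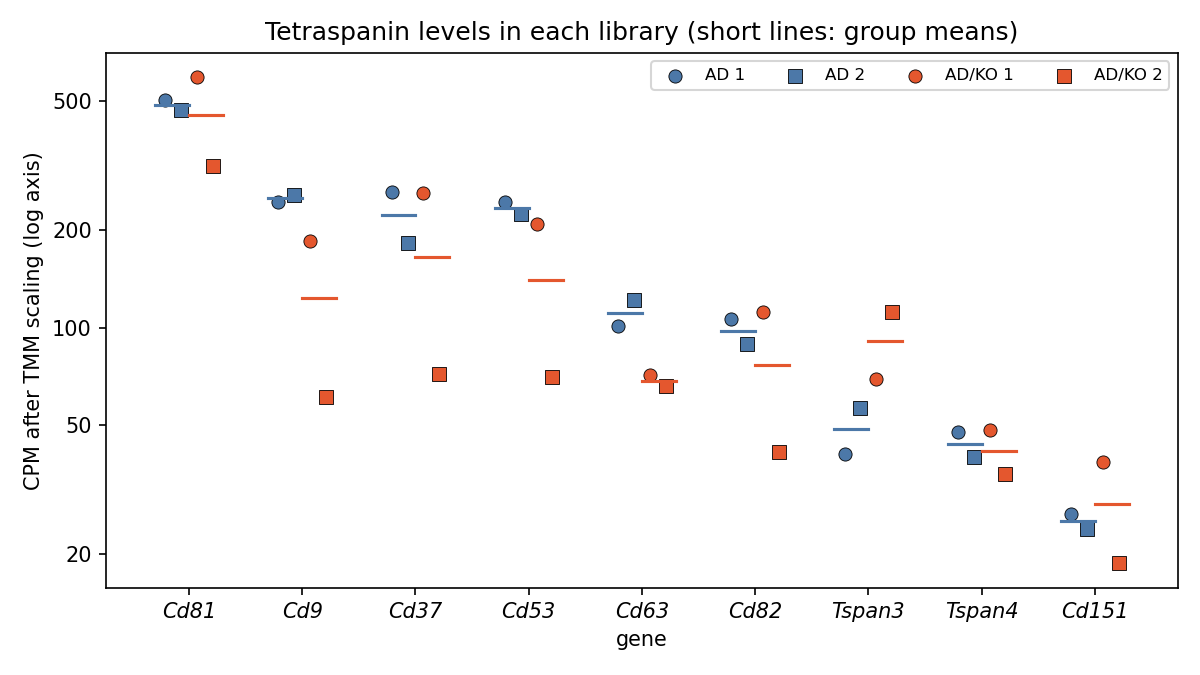
Levels of the 9 tetraspanin genes (x axis) in CPM after TMM scaling (y axis, log scale), 1 symbol per library (AD blue, AD/KO orange; circles replicate 1, squares replicate 2), with short lines for group means. AD/KO replicate 2 is the lowest library for every gene except Tspan3, where it is the highest, at 112 CPM.

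None of the 9 genes passed an adjusted p of 0.05 between AD/KO and AD by edgeR's quasi-likelihood test, as for all genes (0 of 21439 tested, 0%). At an unadjusted p under 0.05 there were 0 of the 9, against 5.00% of all genes. In Cd9, Cd63 and Cd53 each AD/KO library lay below each AD library (3 of 9, against 21.7% of all genes), in Tspan3 each lay above (1 of 9, against 20.3%), and the other 5 overlapped. The 4 genes without overlap, of 9, are a share near the 42.0% of all genes. The median log2 fold change of the 9 was −0.35, beside −0.05 for all genes tested. It was 0.21 without AD/KO replicate 2, 0.27 with a covariate for the level of neuron and astrocyte genes and 0.11 with the libraries scaled to the homeostatic list, so that its sign was not stable. By DESeq2, 0 of the 9 passed the adjusted threshold (0.261% of all genes). In an edgeR quasi-likelihood fit with the replicate number as a block, which the labels do not say is a pairing, 20.2% of all genes passed, and so did 2 of the 9, Cd63 (lower) and Tspan3 (higher). The block fit leaves 1 residual degree of freedom.

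Cd9, a tetraspanin of the cell surface and of vesicles, was at 245 and 258 CPM in AD replicates 1 and 2 and at 185 and 60.9 CPM in AD/KO replicates 1 and 2. The AD libraries were close together and the AD/KO libraries far apart. The log2 fold change was −1.03 (SE 0.59, 95% interval −2.56 to 0.50; adjusted p = 0.680, edgeR quasi-likelihood with Benjamini-Hochberg). It was −0.43 without AD/KO replicate 2 and −1.99 without AD/KO replicate 1. Cd9 was lower in AD/KO under all 11 alternatives, from −1.99 to −0.43. Relative to the homeostatic list (log2 CPM of the gene minus the mean of the list in the same library), Cd9 stood at −2.33 and −1.77 in AD and at −2.65 and −2.46 in AD/KO. The groups did not overlap on that scale, a difference of −0.50 (exact permutation test, two-sided, p = 0.333, the smallest that 2 against 2 allows). Cd37 (0.05) and Cd151 (0.82) did not overlap on it either, both higher in AD/KO. The share of all genes without overlap on that scale was not computed. Genes on the other strand overlap the Cd9 locus, and the use of strand in counting is not given in the sources used here. Gm26728, whose exons share 10.67% of the exon length of Cd9, had 1225 and 1085 reads in AD and 751 and 173 reads in AD/KO. Cd9 itself had 3379 and 4193 reads in AD and 3553 and 1123 reads in AD/KO. Reads of Gm26728 were 15.41% to 36.25% of those of Cd9 in the same library. For Gm28809, which shares 0 exon bases with Cd9, they were 12.02% to 29.00%.

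Cd63, a tetraspanin of late endosomes, lysosomes and the vesicles formed inside them, was at 101 and 121 CPM in AD and at 71.4 and 65.9 CPM in AD/KO. Here the AD/KO libraries lay close together, and AD/KO replicate 2 did not stand apart. The log2 fold change was −0.70 (SE 0.28, 95% interval −1.43 to 0.03; adjusted p = 0.680, edgeR quasi-likelihood with Benjamini-Hochberg) and stayed between −0.83 and −0.49 with each library left out in turn. With the libraries scaled to the homeostatic list it was 0.094. That scaling raised the median of all genes by 0.80, and relative to the median of all genes Cd63 stood at −0.66 under it, against −0.65 without it. Relative to the homeostatic list, Cd63 overlapped between the groups, at −3.60 and −2.85 in AD and −4.02 and −2.35 in AD/KO. The pseudogene Cd63-ps matches the Cd63 transcript at 98.0% identity over 858 bases and had 71 to 171 reads, so that some reads of either may belong to the other.

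Both genes were set beside 15 other genes of disease-associated microglia. That list had a mean log2 CPM of 6.79 and 6.84 in AD and of 4.99 and 4.59 in AD/KO, with 13 of 15 genes lower in each AD/KO library (21.7% of all genes) and a median log2 fold change of −2.54. Of these, 9 had an unadjusted p under 0.05 and were lower, against 2.30% of all genes, and 0 passed the adjusted threshold (edgeR quasi-likelihood). Cd9 and Cd63 thus lay on the same side as the list, with differences smaller than its median. Most markers of monocytes, border-associated macrophages and B cells were lower as well. In each AD/KO library 4 of 5 monocyte genes lay below AD (median log2 fold change −2.28), as did 4 of 6 genes of border-associated macrophages (median −0.66), against 21.7% of all genes. F13a1 of the latter was at 39.5 and 39.3 CPM in AD and at 14.9 and 14.7 CPM in AD/KO. Pf4 (log2 fold change 0.12) and Cbr2 (−0.70) overlapped between the groups. Of the B cell genes, 4 of 5 were also lower in each AD/KO library (median −1.14), against 21.7% of all genes. These 4 were at 0.26 to 3.26 CPM in all libraries. The other, Cd79b, was the most abundant of the list and overlapped, at 6.53 and 6.21 CPM in AD and 6.99 and 2.06 CPM in AD/KO. Neutrophil genes mostly overlapped between the groups. Of the 9 tested, 1 was lower in each AD/KO library, against 21.7% of all genes (median −2.12). Their sum was 379 and 4731 CPM in AD and 503 and 574 CPM in AD/KO. The part of these blood and border cells in the levels of Cd9 and Cd63 was not tested. Whether the difference of either gene comes with that state was not tested. In these bulk libraries, fewer cells of a type and less RNA per cell cannot be told apart.

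**Figure D2:**
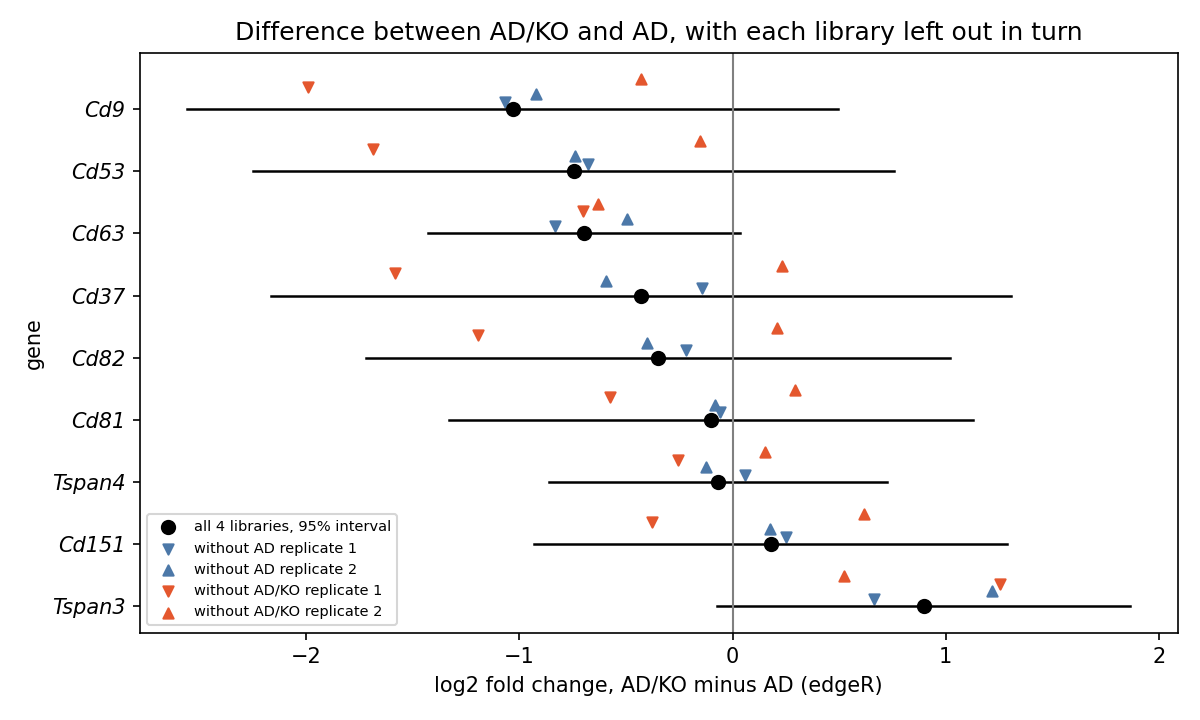
Log2 fold change of AD/KO against AD (x axis) for each tetraspanin (y axis), with all 4 libraries (black, 95% interval) and with each library left out (triangles). Every interval includes 0, and the orange triangles, without 1 AD/KO library, are farthest apart for Cd37, from −1.58 to 0.23.

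Cd53 and Cd37 are the leukocyte tetraspanins. Cd53 was at 245 and 224 CPM in AD and at 209 and 70.3 CPM in AD/KO, so that AD/KO replicate 1 lay just below the AD libraries and replicate 2 far below. Its log2 fold change was −0.74 (SE 0.58; adjusted p = 0.689, edgeR quasi-likelihood with Benjamini-Hochberg), −0.15 without AD/KO replicate 2 and −1.69 without AD/KO replicate 1. Cd37 was at 263 and 183 CPM in AD and at 260 and 71.8 CPM in AD/KO, and the groups overlapped. Its log2 fold change was −0.43 (SE 0.67; adjusted p = 0.807, edgeR quasi-likelihood with Benjamini-Hochberg) and turned to 0.23 without AD/KO replicate 2. Neutrophils carry both proteins too. Without AD replicate 2, the library with the neutrophil transcripts, the log2 fold changes were −0.74 for Cd53 and −0.59 for Cd37.

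Cd37 followed the homeostatic list most closely of the 9. Its level differed 3.66-fold between its highest and lowest library, yet relative to the list it stood at −2.23, −2.26, −2.16 and −2.23 in AD replicates 1 and 2 and AD/KO replicates 1 and 2, a range of 0.10. For Cd53 this range was 0.50, for Cd82 0.51 and for Cd9 0.88, while Tspan3 had the widest, at 3.32. Cd37 on this scale did not overlap between the groups either, but by a difference of 0.05.

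**Figure D3:**
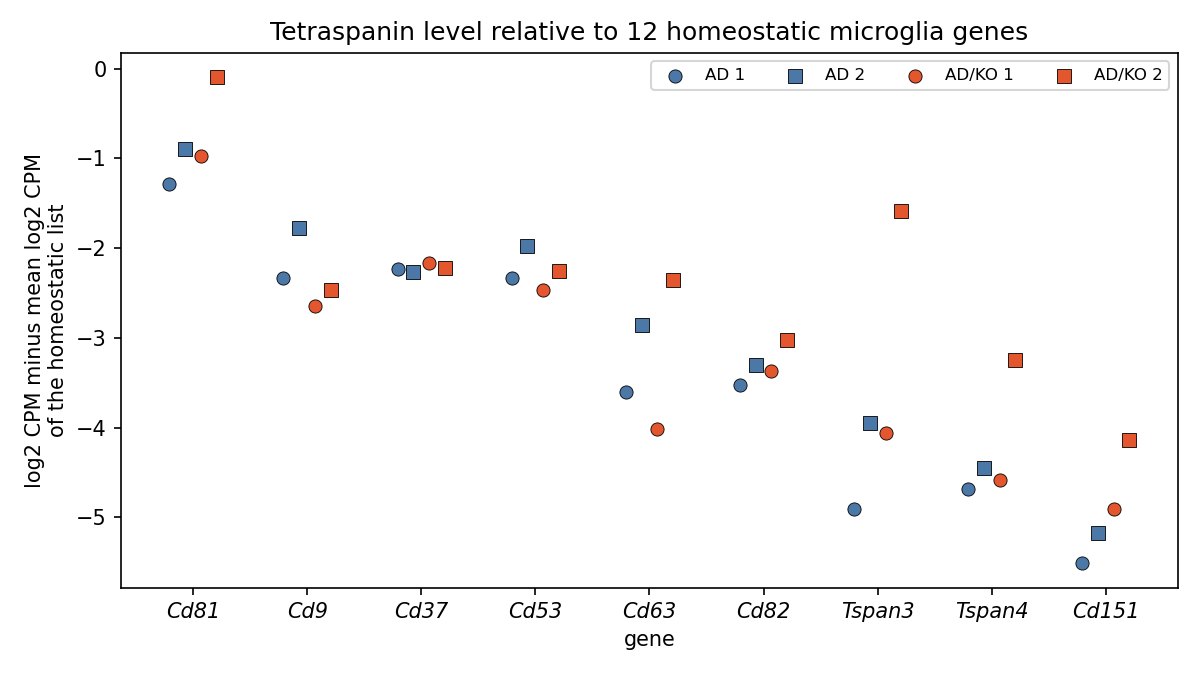
Level of each tetraspanin (x axis) as log2 CPM minus the mean log2 CPM of 12 homeostatic microglia genes in the same library (y axis), symbols as in the plot of levels by library. The 4 libraries of Cd37 nearly coincide, from −2.26 to −2.16, while Tspan3 spans −4.90 to −1.59.

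For Cd81 and Cd82 the sign of the difference was not stable. Cd81, the most abundant of the 9 and known as the partner of the immunoglobulin protein Igsf8, was at 504 and 472 CPM in AD and at 593 and 316 CPM in AD/KO. The AD/KO libraries lay on either side of AD. Its log2 fold change was −0.10 (95% interval −1.33 to 1.13; adjusted p = 0.934, edgeR quasi-likelihood with Benjamini-Hochberg), and 0.29 without AD/KO replicate 2. With all 4 libraries kept it was 0.29 with the neuron and astrocyte covariate and 0.49 with scaling to the homeostatic list. Cd82, also named Kai1 and known as a suppressor of metastasis, was at 106 and 89.1 CPM in AD and at 112 and 41.2 CPM in AD/KO. Its log2 fold change was −0.35 (95% interval −1.72 to 1.02; adjusted p = 0.800, edgeR quasi-likelihood with Benjamini-Hochberg), 0.21 without AD/KO replicate 2, 0.27 with the covariate and 0.11 with scaling to the homeostatic list. Relative to the median of all genes under that scaling, Cd81 stood at −0.26 and Cd82 at −0.64.

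Messenger RNA of Cd9 and Cd81, whose proteins are close relatives and meet in the same membrane domains, did not keep a fixed proportion across these bulk libraries. The libraries differed in cell markers, and the part of that in the ratio was not tested. The log2 ratio of Cd9 to Cd81 CPM was −1.04 and −0.87 in AD and −1.68 and −2.36 in AD/KO, with no overlap between the groups. The log2 ratio of Cd9 to Cd53 varied less, at 0.00 and 0.20 in AD and −0.18 and −0.20 in AD/KO. It did not overlap between the groups either. Of the other ratios computed, Cd151 to Cd81 did not overlap, while Cd63 to Cd53, Cd151 to Tspan4 and Cd37 to Cd53 did. These ratios were chosen after the values were seen, and no test was made of them. The share of all gene pairs without overlap was not computed.

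Tspan3, a broadly expressed tetraspanin that associates with claudin-11 in oligodendrocytes, was the one member whose AD/KO libraries both lay above AD. It was at 40.7 and 56.7 CPM in AD and at 69.4 and 112 CPM in AD/KO. The log2 fold change was 0.90 (SE 0.37, 95% interval −0.07 to 1.87; adjusted p = 0.680, edgeR quasi-likelihood with Benjamini-Hochberg), and 0.52 without AD/KO replicate 2. It was higher under all 11 alternatives, from 0.33 with a covariate for the level of neuron and astrocyte genes to 1.87 with scaling to the homeostatic list. Of the markers of other brain cells, 9 of 10 astrocyte genes, 4 of 10 oligodendrocyte genes and 2 of 12 neuron genes were higher in each AD/KO library, against 20.3% of all genes, so that the neuron share was below that of all genes. The median log2 fold change was 1.41 for the astrocyte genes, 1.40 for the neuron genes and 0.39 for the oligodendrocyte genes. The summed oligodendrocyte markers ranged from 1656 to 2670 CPM in AD and from 3944 to 8591 CPM in AD/KO, with Mbp the most abundant, at 910, 1324, 2504 and 5620 CPM. That sum was mostly Mbp and Mobp, while Mog, Mag and Opalin had log2 fold changes of −0.42, −0.37 and −0.44, and Ermn and Cldn11 of 0.15 and 0.33. The part of oligodendrocytes in the level of Tspan3 was not tested. The covariate fit holds the neuron and astrocyte genes only and leaves 1 residual degree of freedom.

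Cd151 and Tspan4, neighbours on chromosome 7, were among the least abundant, and their CPM overlapped between the groups. Cd151, which binds laminin-binding integrins, was at 26.6 and 23.9 CPM in AD and at 38.4 and 18.7 CPM in AD/KO. The log2 fold change was 0.18 (95% interval −0.93 to 1.29; adjusted p = 0.872, edgeR quasi-likelihood with Benjamini-Hochberg), −0.38 without AD/KO replicate 1 and 0.62 without AD/KO replicate 2. Relative to the homeostatic list, Cd151 did not overlap, at −5.51 and −5.17 in AD and −4.90 and −4.14 in AD/KO. Gm10575, on the other strand, shares 7.04% of the exon length of Cd151 and had 35 to 108 reads, up to 23.77% of the Cd151 reads of the same library. Tspan4, a tetraspanin of migrasomes, the vesicles that moving cells leave behind, was at 47.5 and 39.8 CPM in AD and at 48.2 and 35.2 CPM in AD/KO. It varied least of the 9, by 1.37-fold between its highest and lowest library. Its log2 fold change of −0.07 (95% interval −0.86 to 0.73; adjusted p = 0.933, edgeR quasi-likelihood with Benjamini-Hochberg) turned to 0.15 without AD/KO replicate 2. Chid1, which lies on the other strand and shares 13.41% of the exon length of Tspan4, had 427 to 751 reads, against 648 to 924 for Tspan4.

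Profiles over the 4 libraries were compared by the Euclidean distance of log2 CPM centred on the mean of each gene. Among the members the closest pairs were Cd81 with Cd151 (0.28), Cd9 with Cd53 (0.33) and Cd81 with Tspan4 (0.36), and Tspan3 lay at least 1.34 from every other member. Among 8509 other genes with a mean of at least 20 CPM, those most like Cd9 were Slc16a3, C3ar1 and Sp140 (distances 0.05 to 0.15, where the median gene lay at 1.67). Csgalnact2, Ppia and Mospd2 were most like Cd63 (0.09 to 0.11, median 0.93), Selenos, Tmem50a and Bak1 most like Cd81 (0.05 to 0.08, median 0.82), and Pmp22, Ctsd and Clec5a most like Cd53 (0.06 to 0.08, median 1.46). With 4 libraries, such distances describe these libraries alone.

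**Figure D4:**
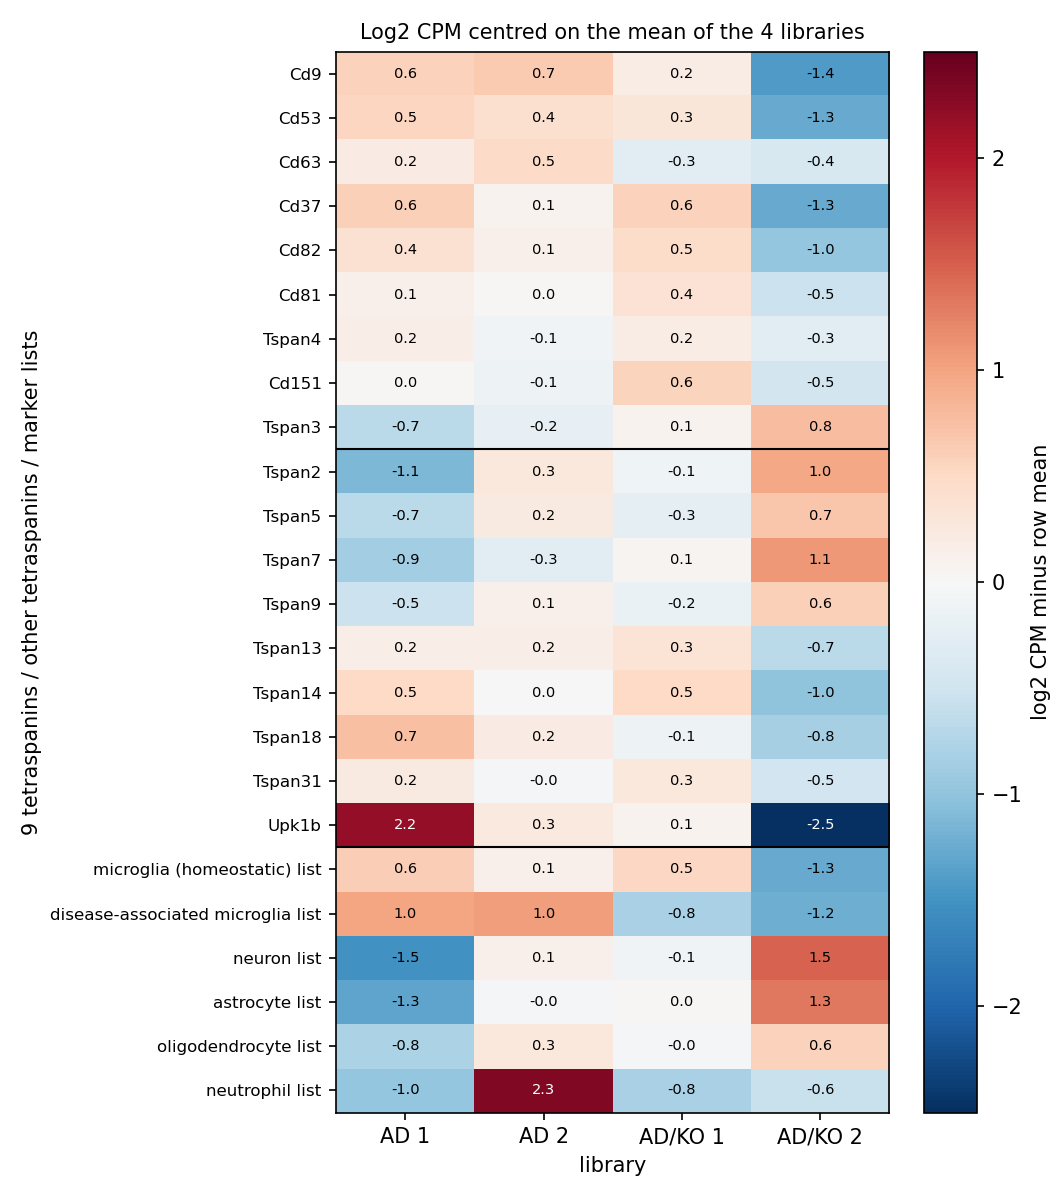
Log2 CPM minus the mean of the 4 libraries (colour and printed value) for the 9 tetraspanins, the other tetraspanins with a mean of at least 20 CPM, and the means of 6 marker lists (rows), by library (columns). Cd37 and the homeostatic list share a low value in AD/KO replicate 2 (both near −1.3), and Tspan3 and Tspan7 run the other way there, at 0.78 and 1.08.

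The rest of the tetraspanin family (22 genes) was described by the same fit. Of the 18 tested, 11 had positive log2 fold changes (10125 of 21439 over all genes) and 7 negative ones, with a median of 0.44. An unadjusted p under 0.05 was found for 0 of them (5.00% of all genes). Groups did not overlap in 3 higher and 3 lower genes, shares below the 20.3% and 21.7% of all genes. Tspan7, a tetraspanin of neurons, was at 146 and 220 CPM in AD and at 280 and 564 CPM in AD/KO (log2 fold change 1.21, SE 0.51). This order over the libraries is that of the astrocyte list, and also that of the neuron list except that AD replicate 2 was above AD/KO replicate 1 there. Tspan2, known from oligodendrocytes, was at 8.56 and 23.2 CPM in AD and at 17.8 and 37.7 CPM in AD/KO. Tspan5 was at 40.3 and 75.4 CPM in AD and 53.9 and 104 CPM in AD/KO, and Tspan9 at 49.9 and 79.4 CPM in AD and 64.5 and 110 CPM in AD/KO. In all 4 of these, AD/KO replicate 2 was the highest library.

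Other family members were lowest in that library. Upk1b, a uroplakin first known from bladder epithelium, was at 83.0 and 21.3 CPM in AD and at 19.0 and 2.66 CPM in AD/KO (log2 fold change −2.26, SE 1.11). Tspan18 was at 60.6 and 41.6 CPM in AD and at 32.9 and 19.9 CPM in AD/KO (log2 fold change −0.95, SE 0.39). Tspan14, one of the tetraspanins that escort the protease Adam10, was at 221 and 156 CPM in AD and at 219 and 77.7 CPM in AD/KO. Tspan13 was at 54.0 and 53.7 CPM in AD and 61.4 and 30.1 CPM in AD/KO, and Tspan31 at 52.3 and 43.8 CPM in AD and 53.9 and 31.7 CPM in AD/KO.

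Among 17 partners of tetraspanins, 14 had negative log2 fold changes, against 11314 of 21439 over all genes. In this list 4 lower genes and 0 higher ones had an unadjusted p under 0.05 (2.30% of all genes for lower, 2.70% for higher). By edgeR's quasi-likelihood test, 0 passed the adjusted threshold. The part of the differing microglial content of the libraries was not tested. The median of the list was −0.62. Itga4, an integrin chain of leukocyte adhesion, was at 43.3 and 61.8 CPM in AD and at 17.3 and 17.6 CPM in AD/KO (log2 fold change −1.59, SE 0.32). Cd44, the hyaluronan receptor, was at 35.9 and 86.8 CPM in AD and at 12.9 and 20.4 CPM in AD/KO (log2 fold change −1.88, SE 0.54). Summed monocyte markers, at 83.4 and 421 CPM in AD and 38.3 and 49.8 CPM in AD/KO, ran in the same order over the libraries as both genes, and their part was not tested. Itga3 had a log2 fold change of 1.21 (SE 0.82), and Igsf8, the partner of Cd9 and Cd81, one of 0.01 (95% interval −0.90 to 0.91). Adam10 was at 293 and 208 CPM in AD and at 233 and 111 CPM in AD/KO.

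Of 12 genes for sorting cargo into vesicles, 7 had positive values (10125 of 21439 over all genes) and 5 negative ones, with a median of 0.09. In this list 1 higher gene had an unadjusted p under 0.05 (2.70% of all genes). That gene was Smpd3, a neutral sphingomyelinase, at 10.1 and 18.6 CPM in AD and at 24.6 and 66.5 CPM in AD/KO (log2 fold change 1.67, SE 0.61). Chmp4b had a log2 fold change of 0.38 (SE 0.29). Sdcbp, the gene of syntenin, which binds Cd63, was at 116 and 121 CPM in AD and at 93.7 and 56.1 CPM in AD/KO (log2 fold change −0.66, SE 0.36), and as for Cd63 its groups did not overlap. Rab27a had a log2 fold change of −0.78 (SE 0.50).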

How the data were processed

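The authors deposited 1 table per library of raw, unscaled read counts by gene symbol. The submitters' processing notes name FastQC, HISAT2, SAMtools, featureCounts, Subread and DESeq2 1.30.0 and the build mm10. Use of strand, handling of multi-mapped reads and the annotation are not given in the sources used here. Per the labels' protocols, libraries were stranded and made after depletion of ribosomal RNA. Broken lines (11 per library) held no count and were left out, and 0 columns lacked a sample.

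The main test was edgeR 4.0.16 (R 4.3.3) on the counts of all 4 libraries: filterByExpr (minimum count 10, minimum total 15), TMM, quasi-likelihood F-test, Benjamini-Hochberg over all genes tested, threshold 0.05. The SE is the log2 fold change divided by the square root of F, and 95% intervals use the moderated degrees of freedom. Log2 levels add 0.5 to CPM. The procedure was tested on simulated data. Alternatives were DESeq2 1.42.0, its size factors, other filters, the replicate number as a block, scaling to the homeostatic list, a composition covariate, and leaving out each library. Near-identical transcripts were searched with BLAST 2.17.0 (at least 95% identity over 100 bases). Gene positions and promoters are from RefSeq for GRCm38.p6, the assembly of mm10, and lengths from GENCODE M21.

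The members and lists were chosen with earlier results of these data known. Named were all 9 members, other tetraspanins with a mean of at least 20 CPM, and, above that level, the 2 partner and 2 sorting genes of smallest p for each direction; other genes given beside a member were chosen after their values were seen.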

Additional observations from a re-analysis of the deposited data

How the results depend on the processing

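The 121 alternative values are the fold changes of the 9 members, their median and the count of genes past the threshold. Among them, 97 were the same. For a fold change this means the same side of 0 and of the threshold. For the median it means a move within the SE of the middle member, and for the count it means 0. A further 2 fold changes passed the threshold only there, and 17 values changed direction. The remaining 5 were counts that rose above 0. Cd9, Cd53 and Tspan3 kept their direction under all 11 alternatives each. With scaling to the homeostatic list, the log2 fold change turned to 0.094 for Cd63, 0.49 for Cd81, 0.11 for Cd82 and 0.67 for Tspan4, with the median of all genes at 0.75 and that of the 9 members at 0.11. With the neuron and astrocyte level as a covariate it turned to 0.29 for Cd81, 0.27 for Cd82, 0.42 for Cd37 and 0.25 for Tspan4, and the median of the 9 to 0.27. Leaving out single libraries gave a median of −0.70 to 0.21. Cd81 ran from −0.57 to 0.29, Cd82 from −1.19 to 0.21, Cd37 from −1.58 to 0.23, Tspan4 from −0.26 to 0.15 (0.06 without AD replicate 1) and Cd151 from −0.38 to 0.62. The cause was not tested.

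The count of genes past the adjusted threshold of 0.05 was 0 in edgeR's quasi-likelihood test, with 1072 at an unadjusted p under 0.05. It was 88 with DESeq2 and 4 with the covariate. It ran from 0 to 524 with a library left out (48 without AD replicate 1, 524 without AD replicate 2), where 1 group holds 1 library that is assumed to vary like the others. None of the 9 members was among these calls. The replicate numbers 1 and 2 occur in both groups, and no label says that they pair the libraries. Same-numbered libraries deviated from their group means with a correlation of 0.68 across genes. With the replicate number as a block, edgeR's quasi-likelihood test called 4333 genes (20.2%), 2878 higher and 1455 lower, among them Cd63 (−0.69, adjusted p = 0.0363) and Tspan3 (0.88, adjusted p = 0.0129). Cd9 (−1.24, adjusted p = 0.0579) did not pass in that fit, which leaves 1 residual degree of freedom.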
